A study of Mus musculus with 12 samples.

Results

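Neural progenitor genes were followed through 12 RNA-seq libraries of mouse embryonic stem cells, of which 4 are labelled as deleted for Foxd3, 2 came from cells induced to overexpress it and 6 are their controls. Foxd3 is a forkhead protein known from pluripotent cells and neural crest. The genes were these 8: Nes, Sox1, Pax6, Sox11, Zic1, Olig3, Ncam1 and Tubb3. They were found by gene symbol among the 19996 genes of the tables for serum plus LIF and for overexpression and the 19718 genes of the table for 2i. Of the 8 genes, 7 had a row in all 3 tables. Tubb3, the neuronal class III beta-tubulin, was not analysed here.

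The 6 groups held 2 libraries each. The SL Foxd3-/- libraries came from Foxd3fl/fl;Cre-ER cells given 4-hydroxytamoxifen (2 µM, 3 days), which activates the Cre-ER recombinase, and the SL Foxd3fl/fl libraries from the same line left untreated. Both were grown on irradiated mouse embryonic fibroblast (MEF) feeders in KO-DMEM with 15% fetal bovine serum and the cytokine LIF (SL). The 2i libraries labelled Foxd3-/- and the 2i Foxd3fl/fl libraries came from the same line in serum-free N2B27 medium with the MEK inhibitor PD0325901 (0.4 µM), the GSK3β inhibitor CHIR99021 (3 µM) and LIF, with tamoxifen given as in SL. The tetON Foxd3 libraries came from cells with doxycycline-inducible Foxd3 and the WT libraries from LF2 cells, both grown without feeders in KO-DMEM with 15% serum and LIF and given doxycycline (1 µg/µl, 3 days). No group here received tamoxifen without the floxed allele, so deletion and tamoxifen cannot be told apart. The tetON Foxd3 cells without doxycycline were not analysed here, so induction of Foxd3 and a difference between the cell lines cannot be told apart. Feeders are named for SL alone, so a difference between the media may also be one of feeders. The deletion tables were assigned to SL or 2i by their names. Whether the 2 libraries of a group are separate cultures is not stated, and p-values then measure only the spread between these libraries, which may be technical.

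All 12 markers of pluripotent cells were at 1 FPKM (fragments normalised for transcript length and library depth) or more in every library, and Pou5f1 stood between 404 and 782 FPKM. Foxd3 was at 53.2 and 50.1 FPKM in tetON Foxd3 libraries and at 10.6 and 14.1 FPKM in WT libraries (log2 difference 1.99, limma adjusted p = 0.0145). In SL it was at 1.62 and 1.83 FPKM in Foxd3-/- libraries and at 4.53 and 4.81 FPKM in Foxd3fl/fl libraries (log2 difference -1.06, limma adjusted p = 0.137). In 2i it was at 2.07 and 2.45 FPKM under the label Foxd3-/- and at 2.51 and 2.42 FPKM under Foxd3fl/fl (log2 difference -0.09, limma adjusted p = 0.461). The authors' deposited table lists 376.17 mean reads for the libraries labelled Foxd3-/- against 221.19 for Foxd3fl/fl. The FPKM of Foxd3 therefore does not separate the 2i groups, and directions in 2i are given by label. The authors' mean reads, summed over all genes, came to 53193753 in SL Foxd3-/- and 54096080 in SL Foxd3fl/fl, 24278898 in 2i labelled Foxd3-/- and 27062508 in 2i Foxd3fl/fl, and 52789850 in tetON Foxd3 and 52911442 in WT. These are group means after the authors' own scaling, and the depth of a single library is unknown.

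Neural progenitors are the dividing cells of the neural plate and neural tube that give rise to neurons and glia. They are recognised by nestin (Nes), an intermediate filament protein, and by transcription factors that hold the progenitor state or pattern the tube: Sox1, a SoxB1 factor and an early marker of neural commitment, Pax6, a paired-box and homeobox factor, Zic1, a zinc finger factor of dorsal neural tissue and neural crest, and Olig3, a basic helix-loop-helix factor of dorsal progenitors. Sox11 is a SoxC factor of progenitors and of young neurons, and Ncam1 is a cell adhesion molecule of the immunoglobulin superfamily that is present through neural development. Embryonic stem cells held in LIF are pluripotent, and those in 2i are held closer to the naive state of the early embryo.

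The genes are scattered over the genome (GRCm38, GENCODE M21). Nes (ENSMUSG00000004891) lies on chr3:87971078-87980451 on the plus strand, Sox1 (ENSMUSG00000096014) on chr8:12395295-12400126 on the plus strand and Pax6 (ENSMUSG00000027168) on chr2:105668900-105697364 on the plus strand. Sox11 (ENSMUSG00000063632) lies on chr12:27334264-27342574 on the minus strand and Olig3 (ENSMUSG00000045591) on chr10:19356533-19358604 on the plus strand. Zic1 (ENSMUSG00000032368) and Ncam1 (ENSMUSG00000039542) both lie on the minus strand of chromosome 9, at chr9:91358058-91365810 and chr9:49502136-49798925. Sox1 lies within Sox1ot on the same strand, and Pax6, Ncam1 and Zic1 overlap Pax6os1, Gm11149 and Zic4 on the opposite strand. No source here says whether counting used strand, so reads of these 4 genes and their partners may be shared.

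The manipulated protein binds DNA, so promoters are shown for the 4 genes called in SL or overexpression by limma or by the authors' p-values. They are RefSeq sequences of GRCm38.p6, from 250 bases before to 50 after the annotated start, each read 5′ to 3′ on its own strand, for Nes (chr3:87970843-87971142, plus), Sox1 (chr8:12395269-12395568, plus), Sox11 (chr12:27342669-27342968, minus) and Olig3 (chr10:19356289-19356588, plus). The GENCODE start of Sox1, at 12395295, lies inside its window, before the RefSeq start. That of Sox11, at 27342574 on the minus strand, lies downstream of its window. Capitals mark matches to 3 motifs searched on both strands: the octamer ATGCAAAT, the TATA box TATAAA and the CCAAT box CCAAT.
Nes: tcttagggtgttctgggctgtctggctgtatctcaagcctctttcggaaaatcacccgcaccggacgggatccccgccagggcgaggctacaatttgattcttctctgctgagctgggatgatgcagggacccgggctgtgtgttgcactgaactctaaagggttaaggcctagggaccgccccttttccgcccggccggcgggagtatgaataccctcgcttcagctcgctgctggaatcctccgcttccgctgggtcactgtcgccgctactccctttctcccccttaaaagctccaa
Sox1: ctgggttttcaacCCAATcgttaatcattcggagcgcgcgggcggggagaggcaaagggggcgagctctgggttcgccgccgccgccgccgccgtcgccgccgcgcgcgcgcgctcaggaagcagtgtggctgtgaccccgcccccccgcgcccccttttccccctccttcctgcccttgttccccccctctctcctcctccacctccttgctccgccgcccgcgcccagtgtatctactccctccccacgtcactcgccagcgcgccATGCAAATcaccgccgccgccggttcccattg
Sox11: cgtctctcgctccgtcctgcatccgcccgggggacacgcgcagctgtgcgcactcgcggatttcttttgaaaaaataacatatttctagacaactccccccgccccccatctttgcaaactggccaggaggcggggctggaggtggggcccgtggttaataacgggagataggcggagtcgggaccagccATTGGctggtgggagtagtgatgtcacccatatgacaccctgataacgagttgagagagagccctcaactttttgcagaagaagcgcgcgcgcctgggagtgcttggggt
Olig3: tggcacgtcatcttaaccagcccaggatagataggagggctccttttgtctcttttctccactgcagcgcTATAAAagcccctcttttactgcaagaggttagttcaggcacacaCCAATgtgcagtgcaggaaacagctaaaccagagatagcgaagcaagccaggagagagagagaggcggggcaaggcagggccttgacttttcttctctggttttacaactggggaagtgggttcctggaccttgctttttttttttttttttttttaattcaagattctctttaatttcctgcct
The Sox1 window holds an octamer at 19 bases past the start and a CCAAT box at position -237. The Olig3 window holds a TATA box at position -180 and a CCAAT box at position -135, and the Sox11 window a CCAAT box on the reverse strand at position -60. The Nes window holds none of these. Of 32851 promoter windows of 300 bases, 1.74% hold the octamer, 13.6% the TATA box and 37.4% the CCAAT box. The forkhead core TGTTTA, also searched on both strands, is in 13.4% of the windows and in none of these 4; this says only that those letters are absent from these windows. No motif contains another. The GC content is 58.7% for Nes, 70.7% for Sox1, 58.7% for Sox11 and 46.0% for Olig3, against a median of 52.7% over all windows.

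In the overexpression comparison, Nes and Sox1 were higher in tetON Foxd3 cells than in WT cells. Sox11 had a ratio of means near that of Nes but missed the threshold. Ncam1 and Pax6 did not pass the test, and Zic1 and Olig3 were too low to be tested. Each comparison was fitted with limma on log2(FPKM + 1) over all genes whose mean reached 1 FPKM in either group, with Benjamini-Hochberg adjusted p-values and a threshold of 0.05. Of the 7 genes measured, 5 passed that filter and 2 were called, both higher, where 2.64% of the 11972 genes tested were called and 0.994% were called higher. The authors' p-values, adjusted here, called 3 members higher (Nes, Sox1 and Sox11), where 4.55% of all 19996 genes were called and 1.96% were called higher. With no filter on low values, limma called 0 of 17032 genes (3232 had an unadjusted p under 0.05), so both calls rest on the filter.

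Nes stood at 5.77 and 8.41 FPKM in tetON Foxd3 libraries and at 1.11 and 1.56 FPKM in WT libraries. Both tetON Foxd3 libraries lay above both WT libraries, in a comparison where the groups of 52.3% of genes tested did not overlap, and the means, 7.09 ± 1.87 FPKM in tetON Foxd3 and 1.34 ± 0.318 FPKM in WT (SD, n = 2 each), differed 5.31-fold. The log2 difference was 1.78 (SE 0.219, 95% interval 1.23 to 2.33, limma adjusted p = 0.0298). Its call was lost without WT replicate 1 (adjusted p = 0.0928) and without WT replicate 2 (adjusted p = 0.0587), with the log2 difference still positive. In the authors' deposited table the fold was 5.47 and the adjusted p 0.000866.

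Sox1 stood at 5.31 and 5.45 FPKM in tetON Foxd3 libraries and at 2.04 and 2.31 FPKM in WT libraries, again without overlap. The log2 difference was 1.01 (SE 0.147, 95% interval 0.64 to 1.38, limma adjusted p = 0.0421), a 2.47-fold ratio of the means. The call did not hold when any of the 4 libraries was left out (adjusted p between 0.0793 and 0.158). The authors' deposited table gives Sox1 a fold of 2.44 with an adjusted p of 0.000179.

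Sox11 stood at 2.88 and 2.10 FPKM in tetON Foxd3 libraries and at 0.342 and 0.724 FPKM in WT libraries. The groups did not overlap and the means differed 4.67-fold, but Sox11 passed the filter only through the tetON Foxd3 libraries, and the log2 difference of 1.19 (SE 0.211, 95% interval 0.66 to 1.72) had a limma adjusted p of 0.0553. It passed the threshold without tetON Foxd3 replicate 2 (adjusted p = 0.0483) and with a filter of 0.2 FPKM (adjusted p = 0.0488). The authors' deposited table, with a fold of 5.43, placed it past the threshold, so its call depends on the test.

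Ncam1 stood at 18.9 and 20.2 FPKM in tetON Foxd3 libraries and at 12.7 and 15.4 FPKM in WT libraries (log2 difference 0.46, SE 0.135, 95% interval 0.12 to 0.79, limma adjusted p = 0.141). The groups did not overlap. Pax6 stood at 4.63 and 6.5 FPKM in tetON Foxd3 libraries and at 2.70 and 7.0 FPKM in WT libraries. The 2 WT libraries of Pax6 bracketed both tetON Foxd3 libraries, and the log2 difference of 0.26 (95% interval -0.70 to 1.22, limma adjusted p = 0.749) leaves its direction undetermined. Zic1 and Olig3 were under the filter, with at most 0.146 FPKM in tetON Foxd3 libraries and 0.231 FPKM in WT libraries. The authors' deposited table lists Zic1 at a fold of 3.26 (adjusted p = 0.583) and Olig3 at -2.68 (adjusted p = 0.644), on mean reads of 13.75 in tetON Foxd3 and 4.22 in WT for Zic1, and of 6.76 in tetON Foxd3 and 18.1 in WT for Olig3.

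**Figure D1:**
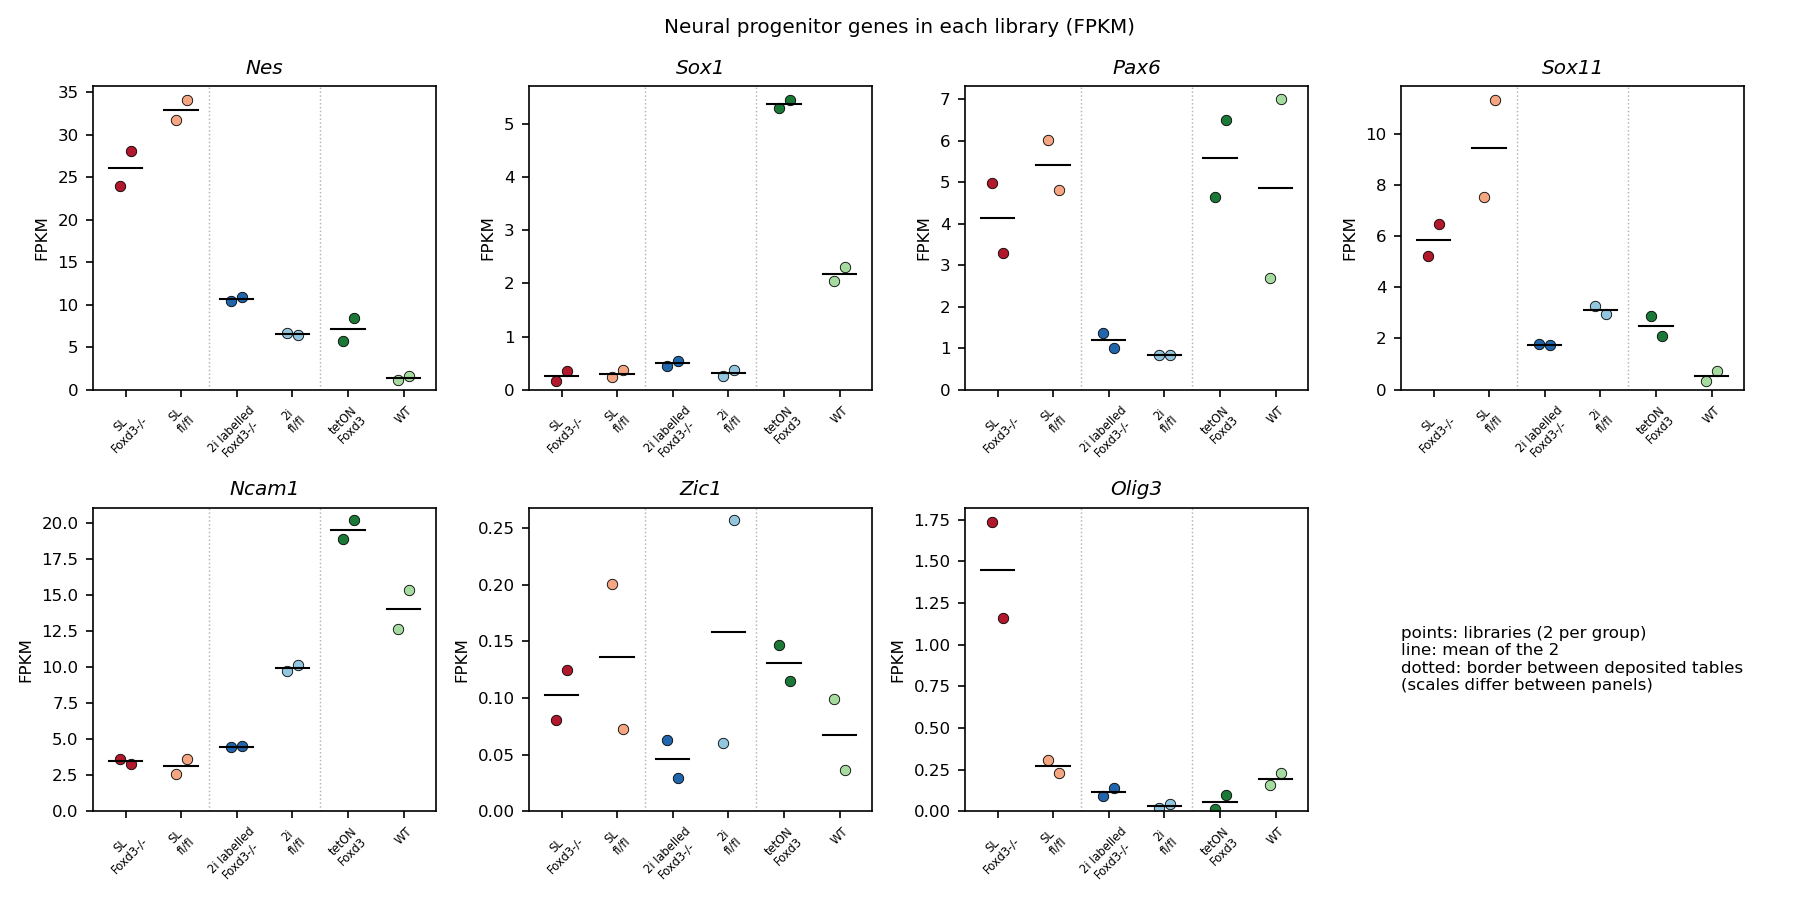
FPKM of the 7 measured genes in each of the 12 libraries, on linear axes that start at 0 and differ between panels, with 1 point per library, a line at the mean of each group and dotted lines between the deposited tables. In the overexpression groups Nes, Sox1 and Sox11 sit higher in both tetON Foxd3 libraries than in both WT libraries, while the Pax6 points of WT (2.70 and 7.0 FPKM) bracket those of tetON Foxd3.

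In 2i, Nes was higher and Sox11 and Ncam1 were lower in the libraries labelled Foxd3-/-. Of the 7 genes, 4 passed the filter and 3 were called, 1 higher and 2 lower. Of the 11637 genes tested there, 67.6% were called, 47.9% higher and 19.7% lower, so the members' count is near the share of all genes. The median over all tested genes was a log2 difference of 0.19, and values are given also after median-of-ratios scaling, which brought that median to -0.02. Nes, Sox11 and Ncam1 kept their direction and their call after the scaling.

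Nes stood at 10.4 and 10.9 FPKM in 2i libraries labelled Foxd3-/- and at 6.62 and 6.44 FPKM in 2i Foxd3fl/fl libraries. The groups were apart, as for 85.3% of genes tested in 2i, and the log2 difference was 0.63 (SE 0.087, 95% interval 0.43 to 0.83, limma adjusted p = 0.00032). After scaling it was 0.43 (adjusted p = 0.00236).

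Ncam1 stood at 4.43 and 4.50 FPKM in 2i libraries labelled Foxd3-/- and at 9.71 and 10.1 FPKM in 2i Foxd3fl/fl libraries, a ratio of means of 0.449. It had the largest difference of the 4 tested members in 2i, with a log2 difference of -1.0 (SE 0.090, 95% interval -1.21 to -0.79, limma adjusted p = 4.22e-05), and -1.19 after scaling. Sox11 stood at 1.78 and 1.73 FPKM in 2i libraries labelled Foxd3-/- and at 3.26 and 2.96 FPKM in 2i Foxd3fl/fl libraries (log2 difference -0.58, SE 0.101, 95% interval -0.81 to -0.35, limma adjusted p = 0.00109), and the scaled log2 difference was -0.73. Each of these 2 genes was lower in both libraries labelled Foxd3-/- than in both Foxd3fl/fl libraries. The authors' deposited table gives folds of 1.39 for Nes, -2.05 for Sox11 and -2.37 for Ncam1, where a negative fold is a decrease in the libraries labelled Foxd3-/-, each past the threshold, as were 40.8% of all genes of that table.

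Pax6 stood at 1.38 and 1.00 FPKM in 2i libraries labelled Foxd3-/- and at 0.844 and 0.836 FPKM in 2i Foxd3fl/fl libraries, and it passed the filter only through the libraries labelled Foxd3-/-. Its log2 difference was 0.25 (95% interval -0.01 to 0.51, limma adjusted p = 0.0829), and 0.13 after scaling (adjusted p = 0.331). It was 0.12 without replicate 1 labelled Foxd3-/- and 0.37 without replicate 2 of that label, where it passed (adjusted p = 0.0406). Sox1, Zic1 and Olig3 were under the filter in 2i. Sox1 was at 0.453 and 0.548 FPKM under the label Foxd3-/- and at 0.262 and 0.375 FPKM in Foxd3fl/fl libraries, and the authors' deposited table gives a fold of 1.34 (adjusted p = 0.346). Olig3 was at 0.0891 and 0.138 FPKM under the label Foxd3-/- and at 0.0211 and 0.0457 FPKM in Foxd3fl/fl libraries.

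In SL no member passed the test, which was fitted without a replicate block. The limma fit called 0 of 5 members tested, where 0.00832% of the 12024 genes, a single gene, were called. An unadjusted limma p under 0.05 was found for 3 of the 5 members (Nes, Olig3 and Sox11) and 9.12% of all tested genes. That count holds Olig3, which passed the filter only through SL Foxd3-/-, where it is high, so it is a description. The authors' p-values, adjusted here, called 1 member, Olig3, which was higher, where 0.535% of all genes were called and 0.44% were called higher.

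Nes stood at 24.0 and 28.2 FPKM in SL Foxd3-/- libraries and at 31.7 and 34.1 FPKM in SL Foxd3fl/fl libraries (log2 difference -0.33, SE 0.126, 95% interval -0.63 to -0.03, limma adjusted p = 0.50). Sox11 stood at 5.21 and 6.48 FPKM in SL Foxd3-/- libraries and at 7.54 and 11.3 FPKM in SL Foxd3fl/fl libraries (log2 difference -0.59, SE 0.209, 95% interval -1.09 to -0.09, limma adjusted p = 0.469). For both genes the SL Foxd3-/- libraries lay below the SL Foxd3fl/fl libraries; the groups of 37.0% of tested genes did not overlap, in either direction. With 1 library left out, the log2 difference of Sox11 ranged between -0.85 (without SL Foxd3fl/fl replicate 1) and -0.32 (without SL Foxd3fl/fl replicate 2), and that of Nes between -0.44 and -0.22.

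Olig3 stood at 1.74 and 1.16 FPKM in SL Foxd3-/- libraries and at 0.308 and 0.232 FPKM in SL Foxd3fl/fl libraries, a 5.37-fold ratio of means, and it passed the filter only through the SL Foxd3-/- libraries. Its log2 difference on the log2(FPKM + 1) scale, which understates the change of low genes, was 0.94 (SE 0.192, 95% interval 0.48 to 1.40, limma adjusted p = 0.203). The adjusted p was 0.0214 without SL Foxd3-/- replicate 2. The authors' deposited table gives mean reads of 163.33 in SL Foxd3-/- and 24.55 in SL Foxd3fl/fl, a fold of 6.65 and an adjusted p of 0.00686, so the call differs between the tests.

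Pax6 stood at 4.97 and 3.29 FPKM in SL Foxd3-/- libraries and at 6.01 and 4.81 FPKM in SL Foxd3fl/fl libraries (log2 difference -0.33, 95% interval -0.83 to 0.16, limma adjusted p = 0.745), and ranged between -0.57 without SL Foxd3-/- replicate 1 and -0.10 without SL Foxd3-/- replicate 2. Ncam1 stood at 3.61 and 3.30 FPKM in SL Foxd3-/- libraries and at 2.58 and 3.64 FPKM in SL Foxd3fl/fl libraries (log2 difference 0.13, 95% interval -0.30 to 0.56, limma adjusted p = 0.939). Both genes overlapped between the groups. Sox1, at 0.172 and 0.348 FPKM in SL Foxd3-/- libraries and 0.231 and 0.366 FPKM in SL Foxd3fl/fl libraries, and Zic1, at 0.201 FPKM or less in every SL library, were under the filter.

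**Figure D2:**
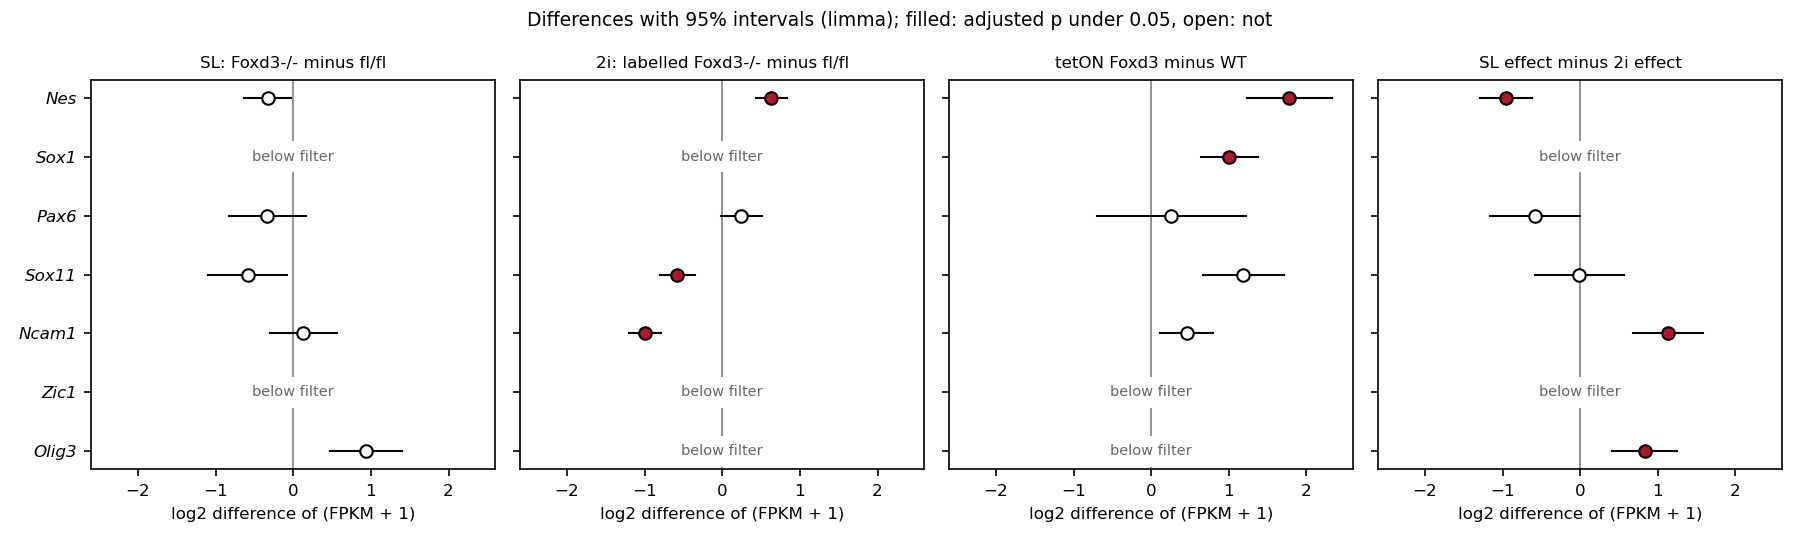
Log2 differences of log2(FPKM + 1) for the members that passed the filter in each comparison, with 95% intervals from limma, and in the rightmost panel the difference in SL minus that in 2i. Filled points have an adjusted p under 0.05. Nes is positive in overexpression (1.78) and in 2i (0.63) and negative in SL (-0.33), and Ncam1 is most negative in 2i (-1.0).

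The difference between the groups labelled Foxd3-/- and Foxd3fl/fl was not the same in SL and 2i for Nes and Ncam1, and for Olig3 in a call that did not hold without some libraries. The FPKM of Foxd3 itself overlapped between the 2i groups, so this compares groups by their labels. Its log2 difference in 2i was -0.09, and -0.25 after median-of-ratios scaling (limma adjusted p = 0.0595). The difference in SL minus that in 2i was fitted on the 8 libraries, and 3 of 5 members tested passed, where 23.9% of 12497 genes did. The count holds Olig3, which entered only through the group where it is high, so it is a description. For Nes the difference was -0.96 (SE 0.146, 95% interval -1.29 to -0.63, limma adjusted p = 0.00569) and for Ncam1 1.13 (SE 0.197, 95% interval 0.68 to 1.58, limma adjusted p = 0.00789). For Olig3, which passed the filter only through SL Foxd3-/-, it was 0.83 (SE 0.184, 95% interval 0.41 to 1.25, limma adjusted p = 0.0162). In 2i Olig3 was also higher under the label Foxd3-/-, at a mean of 0.113 FPKM against 0.0334 FPKM in Foxd3fl/fl. The ratio of its means was 5.37 in SL and 3.39 in 2i. The log2(FPKM + 1) scale understates changes at such levels. All 3 calls held after median-of-ratios scaling. The call for Olig3 was lost without replicate 1 labelled Foxd3-/- in 2i (adjusted p = 0.0656), without replicate 2 of that label (adjusted p = 0.0658) and without 2i Foxd3fl/fl replicate 2 (adjusted p = 0.0714). For Pax6 the difference was -0.58 (95% interval -1.16 to -0.01, limma adjusted p = 0.124). For Sox11, lower in the libraries labelled Foxd3-/- in both media, it was -0.01 (95% interval -0.59 to 0.56, limma adjusted p = 0.978). The authors' folds for Sox11 were -1.6 in SL and -2.05 in 2i. Its mean reads and FPKM did not match alike in SL and 2i, as given below. The effect of that mismatch on this difference was not tested.

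Across the 6 groups the members did not share 1 order of levels. These levels are a description, with no test, since each table may have been normalised separately. Nes was highest in SL, at 26.1 ± 2.97 FPKM in Foxd3-/- and 32.9 ± 1.68 FPKM in Foxd3fl/fl (SD, n = 2 each), followed by 10.7 ± 0.348 FPKM in 2i labelled Foxd3-/-. The tetON Foxd3 libraries (7.09 ± 1.87 FPKM) and 2i Foxd3fl/fl libraries (6.53 ± 0.125 FPKM) overlapped, and WT libraries were lowest at 1.34 ± 0.318 FPKM. Ncam1 and Sox1 had another order, with tetON Foxd3 highest and WT next, each pair apart. Ncam1 averaged 19.5 ± 0.936 FPKM in tetON Foxd3 and 14.0 ± 1.90 FPKM in WT, then 4.46 ± 0.0485 FPKM in 2i labelled Foxd3-/- and 9.93 ± 0.304 FPKM in 2i Foxd3fl/fl, and was lowest in SL, where 3.45 ± 0.222 FPKM in Foxd3-/- and 3.11 ± 0.746 FPKM in Foxd3fl/fl overlapped. Sox1 averaged 5.38 ± 0.103 FPKM in tetON Foxd3 and 2.18 ± 0.188 FPKM in WT, and at most 0.50 FPKM in any other group. Its 2i Foxd3fl/fl, SL Foxd3fl/fl and SL Foxd3-/- libraries overlapped.

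Pax6 averaged 5.57 ± 1.32 FPKM in tetON Foxd3, 4.85 ± 3.05 FPKM in WT, 4.13 ± 1.19 FPKM in SL Foxd3-/- and 5.41 ± 0.846 FPKM in SL Foxd3fl/fl (SD, n = 2 each). These 4 groups ran into each other, and the 2i groups lay below them, at 1.19 ± 0.263 FPKM under the label Foxd3-/- and 0.840 ± 0.00586 FPKM in Foxd3fl/fl. Olig3 was highest in SL Foxd3-/-, at 1.45 ± 0.408 FPKM, and next in SL Foxd3fl/fl, at 0.270 ± 0.0542 FPKM, and WT, at 0.193 ± 0.0539 FPKM. In the other 3 groups it averaged between 0.0334 and 0.113 FPKM, with the tetON Foxd3 libraries overlapping each of the 2i groups, which did not overlap each other. Zic1 averaged between 0.0463 and 0.158 FPKM, and every group overlapped its neighbour in the order. At these levels no order can be read for Zic1.

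The SL libraries also held the highest summed levels of fibroblast genes. The summed FPKM of 22 fibroblast markers was 621 and 566 in SL Foxd3-/- and 381 and 421 in SL Foxd3fl/fl, 236 and 239 in 2i labelled Foxd3-/- and 170 and 184 in 2i Foxd3fl/fl, and 80.7 and 102 in tetON Foxd3 and 129 and 110 in WT. Of the 22 markers, 18 were at 1 FPKM or more in each SL Foxd3-/- library and 17 in each SL Foxd3fl/fl library, against 4 to 7 in the other groups. None was at 0 in SL, 1 to 4 were at 0 in the 2i libraries and 4 to 6 in the tetON Foxd3 and WT libraries, where the collagen gene Col3a1 was at 0 in all 4. Sparc went the other way between the media. It was at 212 and 214 FPKM in 2i labelled Foxd3-/-, against 181 and 164 FPKM in SL Foxd3-/-. In Foxd3fl/fl it was at 156 and 169 FPKM in 2i and at 134 and 129 FPKM in SL. Without Sparc, left out after its values were seen, the sum was 440 and 403 in SL Foxd3-/- and 247 and 292 in SL Foxd3fl/fl, 23.8 and 24.4 in 2i labelled Foxd3-/- and 14.0 and 15.2 in 2i Foxd3fl/fl, and 11.7 and 14.7 in tetON Foxd3 and 12.5 and 11.02 in WT. In SL the fibroblast sum was higher and Nes lower in Foxd3-/- libraries, whereas in 2i both were higher in the libraries labelled Foxd3-/-, and in overexpression Nes was higher in tetON Foxd3 libraries and the sum was lower with Sparc but overlapped between the groups without it. The part of fibroblast RNA in the levels of Nes across groups was not tested. In these bulk libraries, fewer cells of a type and less RNA per cell cannot be told apart.

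**Figure D3:**
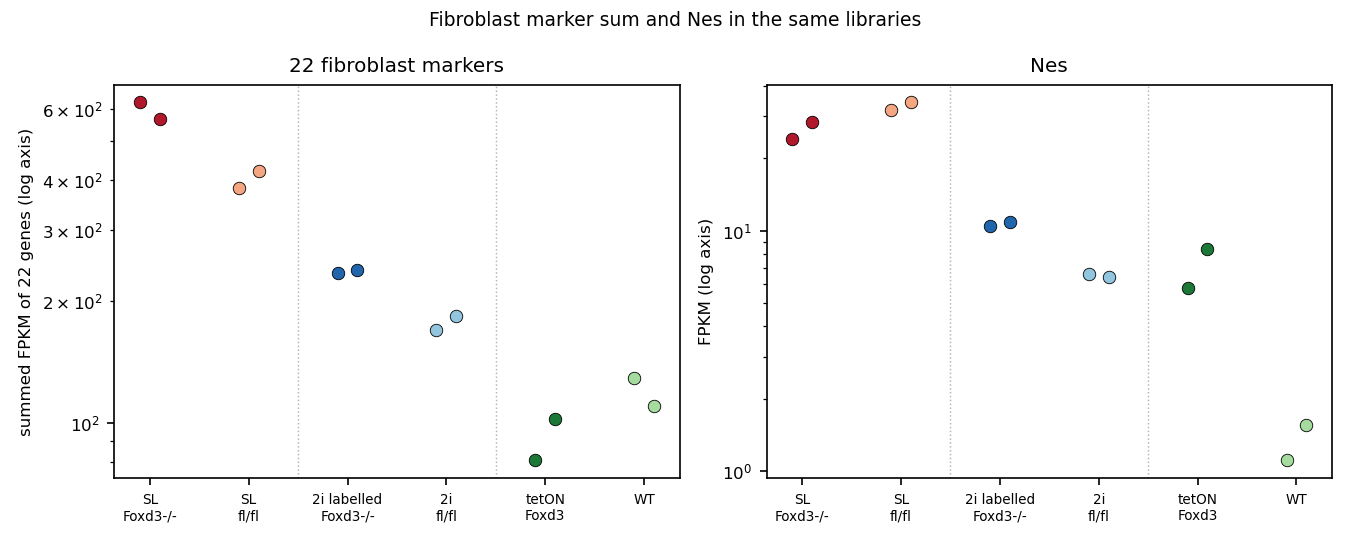
Summed FPKM of 22 fibroblast markers (left) and FPKM of Nes (right) in each library, both on log axes, with 1 point per library. Both are highest in SL, but within SL the Foxd3-/- libraries have the higher marker sum (621 and 566) and the lower Nes (24.0 and 28.2 FPKM).

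For Sox11 the order of levels depended on the quantity. By FPKM it was highest in SL, at 5.85 ± 0.896 in Foxd3-/- and 9.43 ± 2.67 in Foxd3fl/fl (SD, n = 2 each), against 1.75 ± 0.0317 in 2i labelled Foxd3-/- and 3.11 ± 0.214 in 2i Foxd3fl/fl. By the authors' mean reads, scaled here to a sum of 1000000 over all genes, it was highest in 2i Foxd3fl/fl, and the other 2i group lay between the SL groups: it was at 18.3 scaled reads in the libraries labelled Foxd3-/- and 33.8 in Foxd3fl/fl, against 13.3 in SL Foxd3-/- and 21.0 in SL Foxd3fl/fl. Scaled reads over FPKM gives the length in kilobases that the 2 columns imply. For Sox11 it was 10.4 in 2i labelled Foxd3-/- and 10.9 in 2i Foxd3fl/fl, 2.27 in SL Foxd3-/- and 2.23 in SL Foxd3fl/fl, and 2.26 in tetON Foxd3 and 1.94 in WT. The ratio of 2i Foxd3fl/fl to SL Foxd3fl/fl was 4.88 for Sox11, against a median of 1.11 and a 5th to 95th percentile range of 0.833 to 1.33 over 9271 genes with more than 200 mean reads, of which 5 reached the ratio of Sox11 or more. For Nes, Pax6, Sox1 and Ncam1 the same ratio was between 1.10 and 1.38. The cause of the mismatch for Sox11 was not tested. Within each table both quantities gave Sox11 the same direction.

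**Figure D4:**
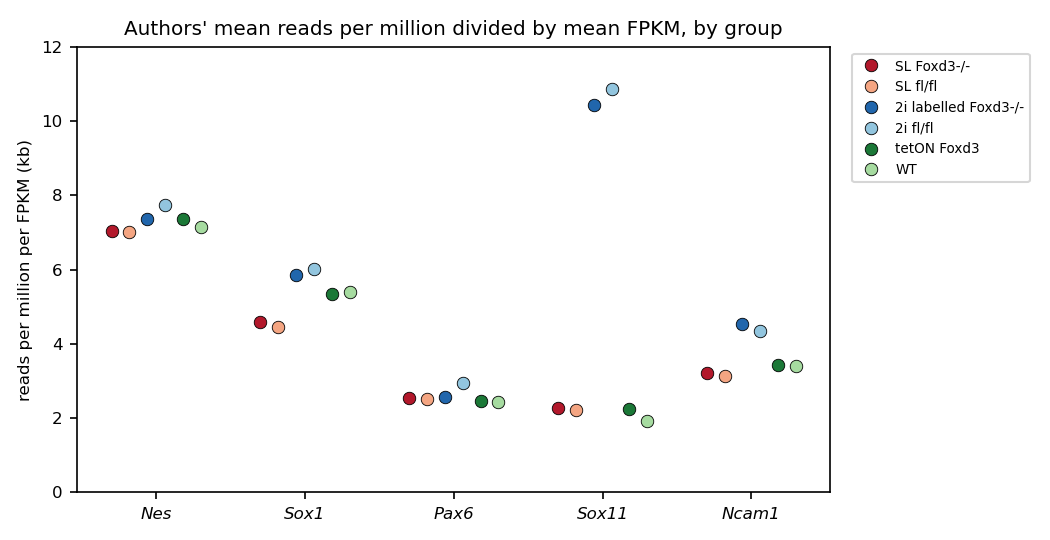
Length in kilobases implied by the authors' mean reads, scaled to 1000000 over all genes, and the mean FPKM, on a linear axis, with 1 point per group for each of 5 members. Sox11 sits at 10.4 and 10.9 in the 2i groups and between 1.94 and 2.27 in the other 4, while Nes stays between 7.02 and 7.73.

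Other genes of neural progenitors and neurons were counted from 5 lists (patterning factors, proneural and related helix-loop-helix factors, radial glia genes, neuronal genes and beta-tubulins) with 81 genes, of which 79 had a row. In overexpression 43 were tested, 6 rose and 1 fell, with a median log2 difference of 0.32 against 0.03 over all genes tested. Of all genes tested, 2.64% were called and 0.994% were called higher. The authors' p-values, adjusted here, called 9 of the listed genes higher and 3 lower, where 4.55% of all genes were called and 1.96% were called higher. Of the 6 that rose, 2 (Neurog3 and Prom1) passed the filter only through tetON Foxd3, where they are high, so the counts that hold them are descriptions. Among patterning factors 1 of 13 rose: Sox4, a SoxC factor like Sox11, at 8.62 ± 0.579 FPKM in tetON Foxd3 and 1.96 ± 0.546 FPKM in WT (SD over 2 libraries; log2 difference 1.71, limma adjusted p = 0.0240). Among helix-loop-helix factors 1 of 3 rose: Neurog3, a proneural factor also known from endocrine pancreas, at 2.47 ± 0.381 FPKM in tetON Foxd3 and 0.225 ± 0.0667 FPKM in WT (limma adjusted p = 0.0269).

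Among radial glia genes 3 of 7 rose in tetON Foxd3 cells. Cd24a, a surface glycoprotein, averaged 49.6 ± 0.587 FPKM in tetON Foxd3 and 9.92 ± 1.44 FPKM in WT (log2 difference 2.22, limma adjusted p = 0.0113, SD, n = 2 each). Prom1, a membrane glycoprotein of progenitor protrusions, averaged 3.52 ± 0.135 FPKM in tetON Foxd3 and 0.630 ± 0.0474 FPKM in WT (log2 difference 1.47, limma adjusted p = 0.0223). Vim, an intermediate filament protein that assembles with nestin, averaged 277 ± 27.3 FPKM in tetON Foxd3 and 145 ± 10.4 FPKM in WT (log2 difference 0.93, limma adjusted p = 0.0261). Vim and Cd24a are also expressed outside the nervous system.

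Among neuronal genes 1 of 14 rose and 1 fell with overexpression. Gap43, a growth cone protein, averaged 18.4 ± 0.618 FPKM in tetON Foxd3 and 6.41 ± 2.00 FPKM in WT (log2 difference 1.41, limma adjusted p = 0.0421). Mapt, the microtubule-associated protein tau, stood at 3.24 and 3.77 FPKM in tetON Foxd3 libraries and at 36.7 and 17.3 FPKM in WT libraries (log2 difference -2.55, limma adjusted p = 0.0358). The WT libraries of Mapt differed widely from each other, but both lay above both tetON Foxd3 libraries. Dcx, the doublecortin gene of migrating young neurons, was at 0.0250 FPKM or less in all 12 libraries, and 0 of 6 beta-tubulins passed by limma or by the authors' p-values. Of the 7 calls, those for Cd24a and Mapt held without any 1 library. The count of listed genes called changed with the library left out, as did that over all genes. The call for Gap43 was lost without tetON Foxd3 replicate 1, without tetON Foxd3 replicate 2 or without WT replicate 2. That for Neurog3 was lost without tetON Foxd3 replicate 1 or either WT replicate. Prom1 lost its call without either WT replicate, Sox4 without WT replicate 2 and Vim without WT replicate 1.

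In 2i 36 of these genes were tested, 15 rose, 14 fell and 7 did not pass. Of all genes tested in 2i, 67.6% were called, 47.9% higher and 19.7% lower. After median-of-ratios scaling 11 rose and 16 fell of 38, where 3509 of all 11594 genes tested were called higher and 3921 lower. Gbx2 and Neurod1 passed the filter through 1 of the groups only. The patterning factors were the list with the most rises, 7 of 11 with 1 fall. Some 2i calls of the lists, that fall among them, were lost with a library left out or after scaling. Sox2, the SoxB1 partner of Pou5f1, averaged 163 ± 8.46 FPKM in libraries labelled Foxd3-/- and 96.3 ± 12.3 FPKM in Foxd3fl/fl libraries (SD over 2 libraries; log2 difference 0.76), and Otx2, a homeobox factor of the anterior neural plate, 10.5 ± 0.827 FPKM in libraries labelled Foxd3-/- and 5.62 ± 0.0511 FPKM in Foxd3fl/fl libraries (log2 difference 0.79). Sox2 is also one of the 12 pluripotency markers, of which 8 rose and 1 fell in 2i.

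The other 2i lists moved in both directions. Of the radial glia genes 1 of 6 rose and 3 fell: Vim averaged 106.9 ± 8.66 FPKM in libraries labelled Foxd3-/- and 206 ± 6.96 FPKM in Foxd3fl/fl libraries (log2 difference -0.94, limma adjusted p = 1.29e-05), and the RNA-binding proteins Msi1 and Msi2 had log2 differences of -0.63 and -0.60. Of the neuronal genes 4 of 10 rose and 6 fell, among them Stmn2 (log2 difference -1.07) and Dpysl3 (log2 difference -1.46), both regulators of the cytoskeleton in growing neurites, and Mapt, which rose (log2 difference 1.10). Of the helix-loop-helix factors 1 of 4 rose, Id4 (log2 difference 0.67), and 1 fell, Neurod1 (log2 difference -0.81). Of the beta-tubulins 2 of 5 rose and 3 fell. Tubb2b had a log2 difference of -0.27, whereas the rises of Tubb6 and Tubb4b did not pass after scaling (adjusted p = 0.307 and 0.0506).

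In SL 45 of the listed genes were tested and none passed by limma or by the authors' adjusted p-values, with a median log2 difference of -0.18 against -0.01 over all genes. With every library, limma called 0.00832% of all genes. The absence of calls did not hold without SL Foxd3-/- replicate 1 or without replicate 2, in fits that leave 1 library in that group. The calls over all genes also rose in these fits. In the test of the difference between media, 4 of 46 were higher and 11 lower in SL than in 2i. Of all 12497 genes tested, 23.9% were called, 693 higher and 2294 lower. After scaling 6 were higher and 5 lower of 45, where 1452 of all 12455 genes tested were higher and 1226 lower. These counts changed with the library left out, as did those over all genes. Vim (1.23) and Dpysl3 (1.59) were among the higher and Sox2 (-0.93) among the lower, each past the threshold before and after scaling.

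**Figure D5:**
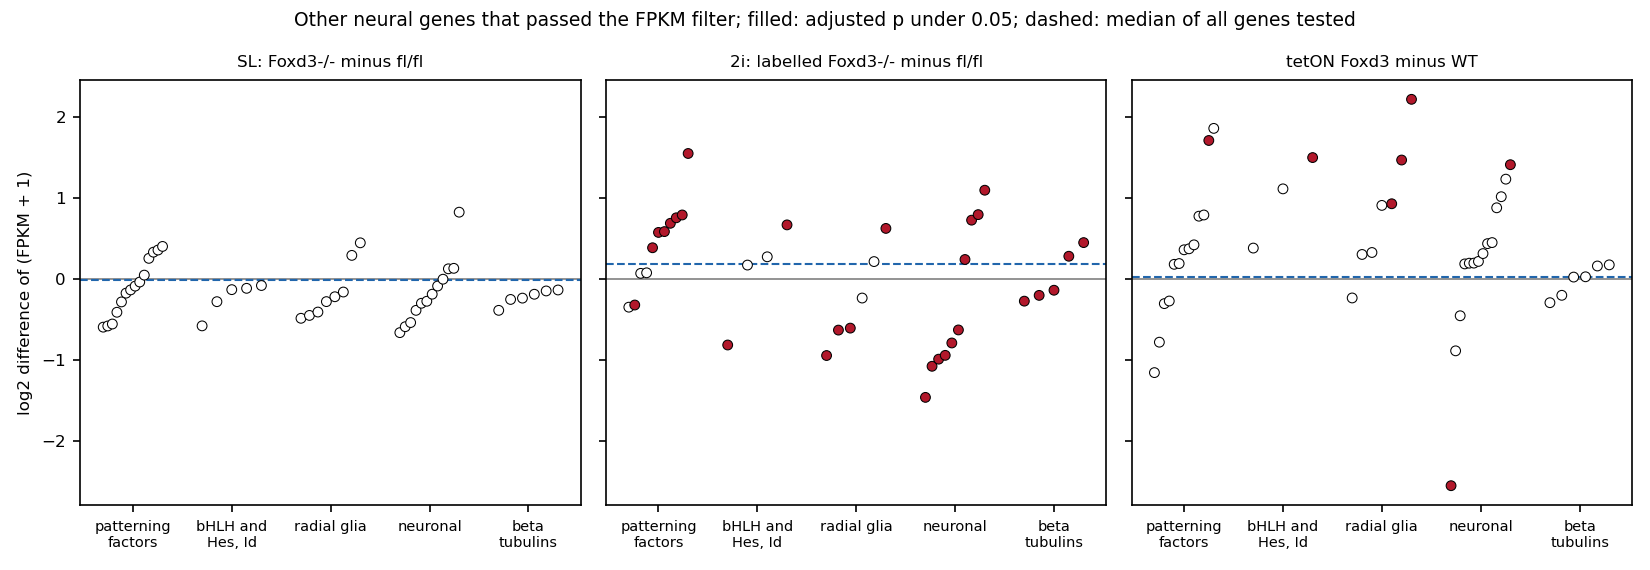
Log2 differences of the tested genes of the 5 other neural lists in each comparison, with 1 filled point per gene past the threshold, 1 open point per other gene, and a dashed line at the median of all genes tested. In overexpression 6 lie above 0 and 1 below among those past the threshold, in 2i 15 and 14, and in SL no point is filled.

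The members differed in which genes varied most like them. Over the 12 libraries, with each table's mean subtracted, the log2(FPKM + 1) of 10926 genes that passed the filter in all 3 tables was compared with that of Nes, Pax6, Sox11 and Ncam1. Nes was most like Fzd2, a Wnt receptor (r = 0.981), and Lphn2, an adhesion receptor (r = 0.974). Sox11 was most like the DNA methyltransferases Dnmt3b (r = 0.972) and Dnmt3a (r = 0.970). Ncam1 was most like Gadd45g, a stress and growth arrest gene (r = 0.951), and Sec24a, a subunit of the vesicle coat of secretion (r = 0.949). Pax6 was most like the small GTPase Rab35 (r = 0.928) and Asb6, which belongs to a family of ubiquitin ligase adaptors (r = 0.916). Among the members, Nes and Sox11 (r = 0.65) and Ncam1 and Sox11 (r = 0.65) were most alike, Nes and Ncam1 (r = 0.09) and Pax6 and Ncam1 (r = -0.03) were not. These r values share libraries and the group differences already given, so they are descriptions with no p.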

How the data were processed

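Per the labels' protocols, polyadenylated RNA for 12 libraries was prepared with a TruSeq v2 kit. Per the submitters' processing notes, the authors used TopHat2, Cufflinks and DESeq2, with FastQC and SAMtools. The notes name GRCm38 and mm10 as builds and give no versions. The authors deposited 1 table per comparison. Per the file headers, each gives FPKM per library, the unit tested here. The authors also deposited a mean read signal per group, a signed fold change score (a negative value is a decrease) and an unadjusted p-value, rounded so that small ones are listed as 0. The deposited fold and p-value in 2i may come from another test than in the other tables.

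Each comparison used its 4 libraries alone (2 residual degrees of freedom), with limma 3.58.1 in R 4.3.3, trend moderation, log2(FPKM + 1), genes whose mean reached 1 FPKM in either group and Benjamini-Hochberg adjustment over all genes tested. The difference between media used 8 libraries (4 residual degrees of freedom). The script was tested on simulated data. FPKM is not a count, so no count test was run, and an exact permutation test of 2 against 2 cannot give a p below 0.333. The authors' p-values were adjusted over all genes of a table as an alternative; the others were scaling, pseudocount, filter, trend, replicate block and leaving out each library. The genes and lists were chosen with earlier results of these data known. Named genes were all members, up to 3 per other list and comparison by smallest adjusted p, the 2 genes most like a member, and Foxd3; Col3a1, Dcx, Pou5f1 and the lists' counts were added as marker checks. A gene that this rule names is not reported here.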

Additional observations from a re-analysis of the deposited data

Results flagged for a closer look

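The difference between the groups labelled Foxd3-/- and Foxd3fl/fl was tested between SL and 2i over 8 libraries. Of 5 members tested 3 passed, where 23.9% of 12497 genes did. The count holds Olig3, which entered only through the group where it is high, so it is a description. For Nes the difference in SL minus that in 2i was -0.96 on the log2(FPKM + 1) scale (limma adjusted p = 0.00569): both SL Foxd3-/- libraries lay below the SL Foxd3fl/fl libraries, and both 2i libraries labelled Foxd3-/- above the 2i Foxd3fl/fl libraries. The groups of 37.0% of genes tested in SL and 85.3% of those in 2i did not overlap, in either direction. For Ncam1 the difference was 1.13 (limma adjusted p = 0.00789), where the SL groups overlapped and the 2i libraries labelled Foxd3-/- were lower. For Olig3 it was 0.83 (limma adjusted p = 0.0162). Its 2i libraries too were higher under the label Foxd3-/-, with a ratio of means of 3.39 against 5.37 in SL. Olig3 was at 0.138 FPKM or less in every 2i library and passed the filter only through SL Foxd3-/-, and its call was lost in 3 of the 8 fits with 1 library left out (adjusted p = 0.0656, 0.0658 and 0.0714) and with a pseudocount of 0.1 (adjusted p = 0.0531). Medium, feeders and table differ together, and the FPKM of Foxd3 did not separate the 2i groups.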

How the results depend on the processing

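In SL the call count over all genes was 1; it was 1997 with a replicate block, 107 by the authors' adjusted p-values and 1 to 313 with 1 library left out. For members in SL it was 0, against 4 with a replicate block, 1 by the authors' p-values and 0 to 1 with 1 library left out. In overexpression the count over all genes was 316, against 0 with no filter (of 17032 genes), 2473 with a replicate block, 909 by the authors' p-values and 42 to 342 with 1 library left out. For members it was 2, against 0 with no filter, 4 with a replicate block and 0 to 2 with 1 library left out. For the difference between media it was 2987, against 5342 with a replicate block and 683 to 3761 with 1 library left out. The members called in SL with the block were Nes, Pax6 and Sox11, lower, and Olig3, higher. Foxd3 itself was called lower in SL only with the block among the fits that used every library. With the block, 6 of the 45 other neural genes tested in SL were called higher and 17 lower, against none without it, 16 of 43 higher and 6 lower in overexpression, and 7 of 46 higher and 17 lower between media. The replicate numbers are not said to pair libraries and share only a number; deviations of same-numbered libraries correlated at 0.60 in SL, -0.05 in 2i and 0.60 in overexpression.

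Of 294 alternatives for single genes, 254 kept direction and side of the threshold, 17 passed it anew, 13 no longer passed and 10 changed sign. Ncam1 in SL ranged between -0.059 (without SL Foxd3fl/fl replicate 1) and 0.31 with 1 library left out, and Pax6 in overexpression between -0.30 (without WT replicate 1) and 0.81. Foxd3 in 2i was 0.77 as the log2 of the authors' fold. The difference between media for Sox11 was 0.15 after scaling, 0.13 with a pseudocount of 0.1, 0.053 with one of 0.5, and -0.28 to 0.25 with 1 library left out. The call for Olig3 between media was lost with a pseudocount of 0.1 (limma adjusted p = 0.0531). The split over all genes in 2i was 5573 higher and 2291 lower, and 3509 higher and 3921 lower after scaling. In these cases the cause was not tested, except that leaving out a library lowers the number of libraries fitted.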
